A study of Mus musculus with 12 samples.

Results

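Wild-type (WT) CD8 T cells held for 24 h in a collagen gel were compared with WT cells held for 24 h in media. The comparison used the 3 WT gel and the 3 WT media libraries, chosen by their labels, 6 of the 12 libraries of the series. The other 6 libraries came from Dock8 KO mice in the same cultures and entered the fit, where they share the estimate of the spread between replicates. At the depth of the smallest library, the KO gel libraries held 28362 to 30104 genes with a count. The KO media libraries held 24505 to 24983 and the WT libraries 24336 to 25142. All cells were primary activated CD8+ T cells from lymph node and spleen, kept in vitro for 3 days of activation and expansion before the final culture, with n = 3 mice per group in the labels. The gel was bovine collagen at 2 mg/mL, and cells were recovered from it before RNA extraction, a step named for the gel cells only, so gel culture and recovery cannot be told apart. The sources used here do not give the strain or age of the mice, the stimulus used for activation or the way of recovery.

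CD8 T cells are the cytotoxic lymphocytes of adaptive immunity, which crawl through the collagen fibres of tissues to find and kill infected or transformed cells. A collagen gel gives such cells a fibrous, confining space in place of a liquid culture. Transcripts of the immediate early class, among them the Fos genes, can appear within minutes of a signal without new protein synthesis, whereas interferon-induced genes follow the binding of interferons to their receptors.

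The WT libraries held 42001486 to 53138362 counts in media and 28483064 to 39710270 in gel. Levels are given as CPM, the count per 1000000 counts of the scaled library total, unless stated otherwise. Cd8a, one chain of the CD8 co-receptor, stood at 624, 641 and 744 CPM in media and 624, 633 and 736 CPM in gel, and Cd4 did not exceed 3.78 CPM. Dock8 stood at 362, 418 and 442 CPM in media and 378, 410 and 449 CPM in gel. The marker values that follow in this paragraph are counts per 1000000 counts of the library total without scaling. Of the markers of other cells, the 13 granulocyte and mast cell genes summed to at most 1.34 CPM with S100a8, S100a9, Elane, Ngp and Retnlg at 0, and 9 of the 12 B cell genes stayed under 1 CPM while Ighm, the immunoglobulin heavy chain, averaged 936 CPM. The markers of non-T cells and of NK and gamma-delta T cells, mostly Ighm, summed to 1183 to 1302 CPM in media and 1009.7 to 1309.9 CPM in gel (two-sided exact permutation p = 0.5, n = 3 per group, where the smallest possible p is 0.1). The 9 CD4 and regulatory T cell markers summed to 690.4 to 734 CPM in media and 759.8 to 836 CPM in gel, without overlap; their most abundant genes, Il2ra and Ctla4, are also expressed by activated CD8 T cells. The part of these markers in the results was not tested. The share of counts in 357 loci that resemble ribosomal RNA was 5.11 to 5.67% in media and 7.40, 8.35 and 17.8% in gel, so that each gel library lay above each media library (two-sided exact permutation p = 0.1, the smallest that 3 against 3 allows; adjusted over 5 library measures, 0.25). Leaving these loci out gave the same number of called genes as keeping them in the test described next.

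In gel, 7 of the 19010 genes tested (0.0368%) changed: 6 rose (0.0316%) and 1 fell (0.00526%; edgeR quasi-likelihood test, Benjamini-Hochberg adjusted p under 0.05). The 6 were Fosb, Fos, Klf4, Tsc22d3 and the predicted gene models Gm37352 and Gm26532. Fosb and Fos are 2 members of the AP-1 family of transcription factors. Klf4 is a zinc-finger transcription factor known for holding T cells in quiescence, and Tsc22d3 is the gene of the glucocorticoid-induced leucine zipper GILZ. Osm, which encodes the cytokine oncostatin M, was the gene that fell. The 7 genes were called under every alternative that tested them except a fit of the 6 WT libraries alone, where Fosb and Fos were called and the adjusted p of the other 5 lay between 0.0593 (Osm) and 0.344 (Gm26532).

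Fosb, on the minus strand of chromosome 7 (19302696 to 19310051, GRCm38), stood at 2.12, 3.13 and 2.30 CPM in media and 17.3, 22.1 and 24.6 CPM in gel. Its lowest gel library lay far above its highest media library. The log2 fold change was 3.09 (SE 0.16, adjusted p 1.93e-07 in the edgeR test), an 8.52-fold rise. Fos, on the plus strand of chromosome 12 (85473890 to 85477273), stood at 1.05, 1.18 and 0.683 CPM in media and 6.50, 8.04 and 5.69 CPM in gel, again with no overlap. Its log2 fold change was 2.79 (SE 0.20, adjusted p 1.26e-05), from 32 to 56 counts per media library and 202 to 235 per gel library. Fosb was scarce in media and Fos in both cultures, and the share of cells that carry them cannot be read from bulk RNA, where fewer cells of a type and less RNA per cell cannot be told apart.

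The promoters of both genes are shown because Fosb and Fos had the largest rises among the 7 genes called in this test. The 250 bases before the start site are taken from RefSeq (GRCm38.p6), for Fos at chr12:85473640-85473889 on the plus strand and for Fosb at chr7:19310046-19310295 on the minus strand, with motifs in capitals. TGACG is the core of the cyclic AMP response element. The other motif, TATAAA, marks the place where the basal transcription machinery assembles in some promoters.
Fos: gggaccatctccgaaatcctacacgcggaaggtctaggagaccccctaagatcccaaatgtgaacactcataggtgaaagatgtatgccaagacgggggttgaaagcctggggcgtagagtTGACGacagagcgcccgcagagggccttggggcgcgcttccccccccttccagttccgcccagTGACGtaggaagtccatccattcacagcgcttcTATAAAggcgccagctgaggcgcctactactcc
Fosb: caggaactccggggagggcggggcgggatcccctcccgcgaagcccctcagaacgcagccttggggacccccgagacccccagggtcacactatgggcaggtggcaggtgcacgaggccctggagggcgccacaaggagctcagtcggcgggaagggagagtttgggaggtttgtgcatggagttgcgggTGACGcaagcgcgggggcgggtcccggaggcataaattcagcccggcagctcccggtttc
TGACG, searched on both strands, lay 129 and 66 bases before the start of Fos and 60 bases before that of Fosb, and TATAAA lay 33 bases before the start of Fos. Of 32851 mouse promoters of the same length, 17.8% hold TGACG and 7.59% hold TATAAA. Among the 10 AP-1 genes with a promoter in the table, 6 hold TGACG (Atf3, Batf, Fos, Fosb, Jdp2 and Junb), against 30.1% of the 10863 tested genes with one. Of these 6 genes, only Fos and Fosb passed the test, so the letters were shared by members that did and did not change. A match of letters is a description and not a site of binding.

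No other member of the AP-1 family passed the test. Of the 11 AP-1 genes tested, 2 were called, both higher, beside 0.0316% of all genes. The median log2 fold change was 0.08, beside -0.01 over all genes tested. With total-count scaling these medians were -0.01 and -0.09. Jun, the common partner of Fos, gave -0.22 (SE 0.16), Junb -0.09 and Jund 0.01, and Batf, which pairs with Jun proteins in activated T cells, gave 0.00. Fosl2 gave 0.12, Jdp2 0.21, Atf3 0.08 and Batf3 0.10. Jund, Junb and Batf were present in both cultures, at 154 to 188, 79.7 to 137 and 34.2 to 45.2 CPM over the 6 libraries. None of the 18 genes of the Egr, Nr4a and other immediate early list was called in this edgeR test. At an unadjusted p under 0.05, 3 were higher and 1 lower, beside 2.8% and 2.64% of all genes. Nr4a1, the orphan nuclear receptor that follows T cell receptor signals, gave 0.57 (SE 0.24, adjusted p 0.894).

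**Figure D1:**
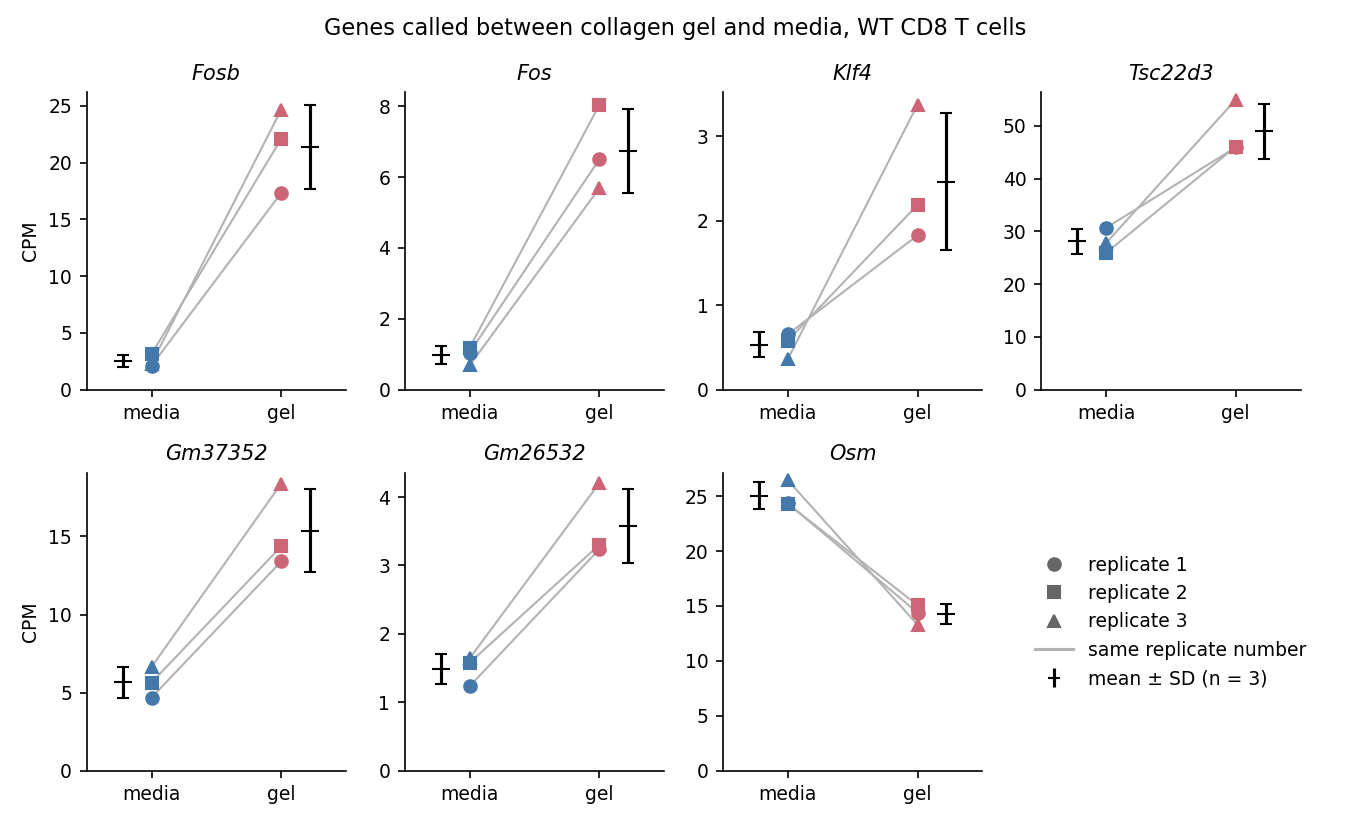
CPM of the 7 called genes in each WT library (vertical axes, each from 0), media in blue and gel in red, with marker shape and grey lines for the replicate number and black bars for mean ± SD (n = 3). For each gene the 3 gel libraries lie on one side of the 3 media libraries, above for 6 genes and below for Osm.

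Klf4, on chromosome 4 (55527143 to 55532466, minus strand), stood at 0.655, 0.580 and 0.363 CPM in media and 1.83, 2.19 and 3.37 CPM in gel. Every gel library lay above every media library, although at only 17 to 35 counts per media library. The log2 fold change was 2.21 (SE 0.26, adjusted p 0.00196). Tsc22d3, on chromosome X (140539528 to 140600659, minus strand), stood at 30.6, 25.9 and 27.8 CPM in media and 45.9, 46.0 and 54.9 CPM in gel. Its log2 fold change was 0.80 (SE 0.08, adjusted p 0.000806), a 1.74-fold rise. Tsc22d3 is induced by glucocorticoids and by FoxO factors, and no other gene of that list passed the test: 1 of 20 was called, and the median was 0.09. Over all genes 0.0316% were called as higher. With total-count scaling the list's median was -0.0022, beside -0.09 over all genes. Fkbp5, another classical glucocorticoid target, gave 0.20 and Irs2, a FoxO target, 0.25, neither past the test.

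The pair of predicted gene models lay on the plus strand of chromosome 8 around a cluster of microRNA genes. GENCODE types Gm26532 as a long intergenic noncoding RNA. Gm37352 (84200869 to 84203049) stood at 4.68, 5.64 and 6.64 CPM in media and 13.4, 14.4 and 18.4 CPM in gel, and rose by 1.45 on the log2 scale (SE 0.14, adjusted p 0.000231). Gm26532 (84208920 to 84209609) stood at 1.24, 1.58 and 1.64 CPM in media and 3.24, 3.30 and 4.20 CPM in gel, and rose by 1.28 (SE 0.16, adjusted p 0.00372). Neither gene had overlapping cultures. Between them, 5468 bp after the end of Gm37352, begin the loci Mir23a, Mir27a and Mir24-2, and Gm26532 overlaps the end of Mir24-2. Reads on these loci were taken as precursor transcript, since total RNA libraries of this kind do not usually hold the mature microRNA. The origin of the reads was not tested. The counts on Mir23a were 7, 10 and 11 in media and 11, 18 and 29 in gel, those on Mir27a 2, 6 and 7 against 7, 15 and 14, and those on Mir24-2 2, 2 and 1 against 4, 4 and 6. The sums, 28 against 58, 15 against 36 and 5 against 14, were higher in gel at these loci although the gel libraries were the shallower ones. On the opposite strand inside Mir24-2, Mir3074-2 had 1, 1 and 4 counts in media and 0 in each gel library. In the test neither Mir23a nor Mir27a was called (adjusted p 0.458 and 0.61). Mir23a passed it with the replicate number as a block (0.0438), but not with that block in WT libraries alone (0.0534). Zswim4, the next gene downstream on the opposite strand, gave 0.06 (SE 0.10).

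The mature microRNAs that the cluster encodes are given from RefSeq, with the seed (bases 2 to 8) in capitals, to identify the locus.
mmu-miR-23a-3p: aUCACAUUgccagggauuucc
mmu-miR-27a-3p: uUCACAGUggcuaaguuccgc
mmu-miR-24-3p: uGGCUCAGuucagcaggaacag
The 3 seeds differ from each other. The level of the mature forms was not measured in these libraries.

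Osm, on the plus strand of chromosome 11 (4236420 to 4241026), stood at 24.4, 24.3 and 26.5 CPM in media and 14.4, 15.1 and 13.3 CPM in gel. The gap between the groups was wider than the range of either. The log2 fold change was -0.82 (SE 0.09, adjusted p 0.00143). Lif, which encodes leukaemia inhibitory factor, a cytokine of the same gp130 family, begins 16530 bp after the end of Osm on the same strand. It stood at 9.25, 10.6 and 13.7 CPM in media and 5.40, 7.84 and 5.94 CPM in gel, with the same log2 fold change of -0.82 but a wider error (SE 0.16, adjusted p 0.151). Tnf, the inflammatory cytokine, stood at 51.6, 52.8 and 60.1 CPM in media and 36.5, 39.5 and 38.0 CPM in gel (log2 fold change -0.53, SE 0.12, adjusted p 0.315). Each of these cytokine genes was lower in every gel library than in any media library, and Osm alone of them passed the edgeR test without a block for the replicate number, which is described further on. DESeq2 without that block also called Lif and Tnf. With the block in edgeR Lif and Tnf were called too (adjusted p 0.00463 and 0.00566, for Tnf 0.18 with the block in WT libraries alone). Of the 23 effector cytokine and chemokine genes tested, 1 was called without the block, beside 0.00526% of all genes called lower. Their median was -0.12. Ifng, the gene of interferon gamma, was scarce in both cultures, at 0.756 to 1.45 CPM.

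The replicate numbers accounted for more of the variation than the culture did. Among the 9924 genes whose log2 CPM averaged 3 or more, replicate number took 70.3% of the sum of squares over the 6 WT libraries, culture 16.5% and the remainder 13.1%. These parts have 2, 1 and 2 degrees of freedom, which gives 35.2%, 16.5% and 6.57% per degree of freedom. The first principal component, 57.2% of the variance, ordered the libraries by replicate number, and the second, 16.5%, parted gel from media. The SD over genes of the log2 ratio between 2 libraries was 0.140 to 0.185 for a gel and a media library of one number, and 0.176 to 0.290 for libraries of one culture. Libraries with a replicate number in common were thus mostly closer than libraries with a culture in common.

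**Figure D2:**
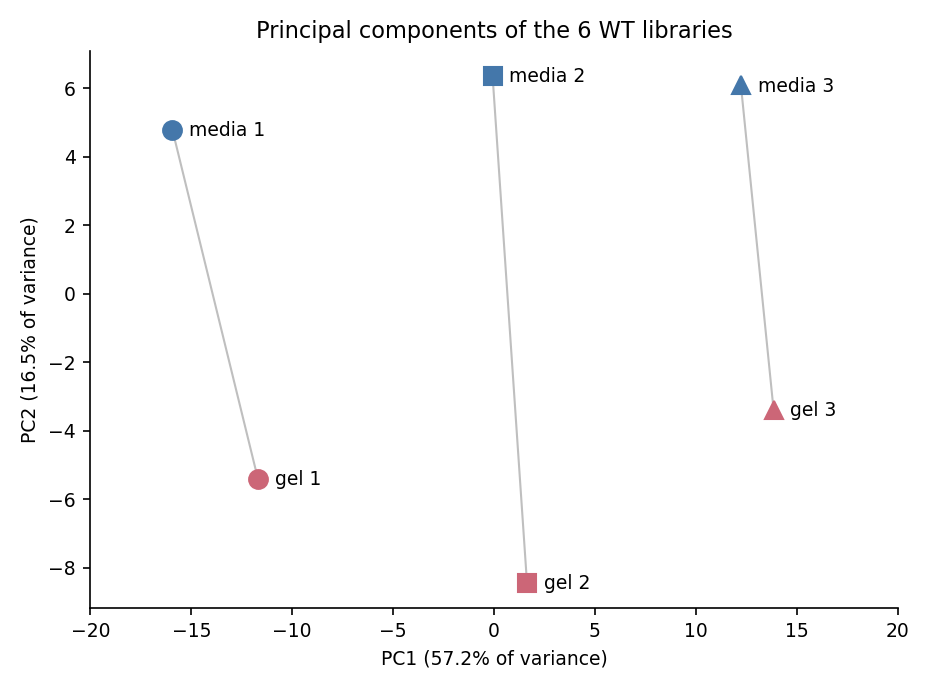
Scores of the 6 WT libraries on the first (57.2% of variance) and second (16.5%) principal component of log2 CPM, media in blue and gel in red, with grey lines joining libraries of one replicate number. Replicate numbers are spread along the horizontal axis, and all 3 gel libraries lie below the 3 media libraries on the vertical axis.

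With the replicate number as a block in the same edgeR fit, 171 genes (0.9%) were called, 96 higher (0.505%) and 75 lower (0.395%) in gel. A fit of the 6 WT libraries with the block and without any KO library called 667 of 17926 genes (3.72%), 373 higher and 294 lower. Where all 12 libraries were kept and the block was given to the WT libraries alone, 60 genes (0.316%) were called, 37 higher (0.195%) and 23 lower (0.121%), and all 60 were among the 171. The 7 genes named above were called with either form of the block in 12 libraries. Without the loci that resemble ribosomal RNA the block gave 175 calls. With total counts in place of TMM scaling, the blocked calls were 48 higher and 245 lower, and that scaling moved the median over all genes to -0.09. The shifts were small: 136 of the 171 were under 1.5-fold, and the median was 1.30-fold for the higher and 1.26-fold for the lower genes. Without the pair of replicate 1, 2 or 3 the blocked fit called 47, 66 and 22 genes, and without media replicate 1 the fit with no block called 16.

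**Figure D3:**
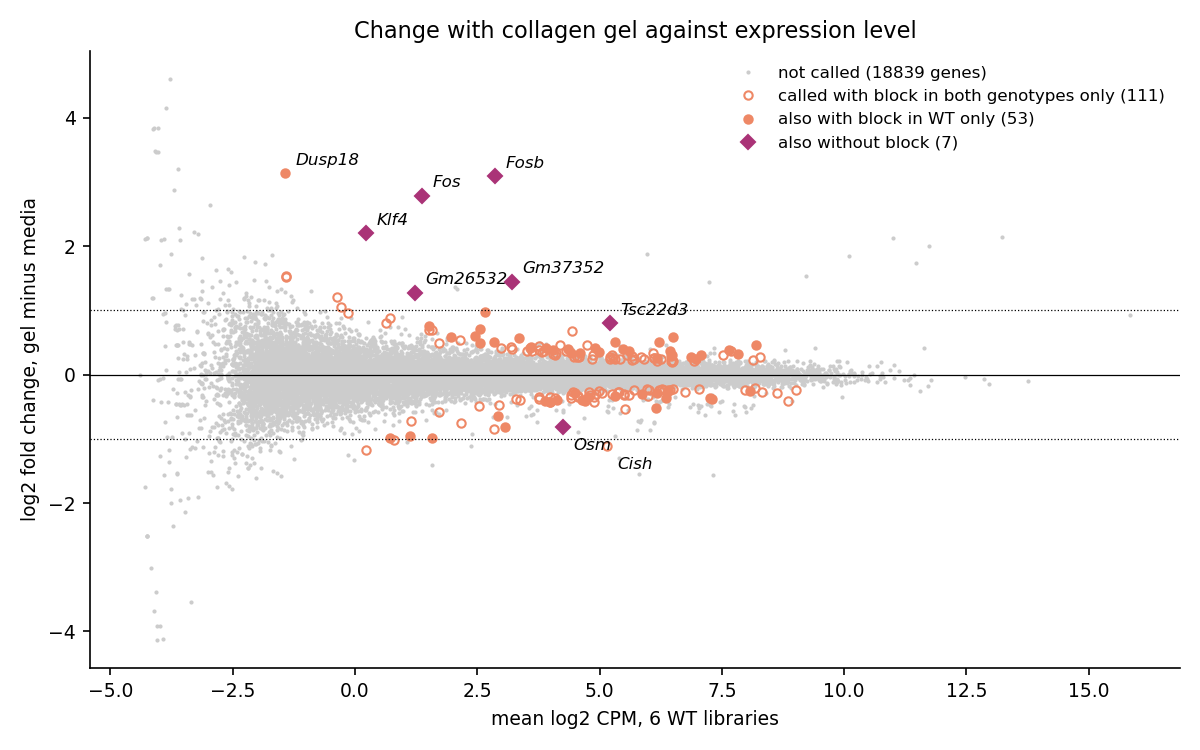
Log2 fold change between gel and media (vertical axis) against mean log2 CPM of the 6 WT libraries (horizontal axis) for all genes tested, with dotted lines at 2-fold. Diamonds mark the 7 genes called without a block, filled circles those added by a block in WT libraries, and open circles those called only with a block in both genotypes; most of the added genes lie well inside the dotted lines.

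Among activation genes, the blocked calls were higher in gel. Ctla4, the inhibitory receptor that competes with Cd28, stood at 267, 240 and 237 CPM in media and 349, 341 and 339 CPM in gel. All 3 gel libraries lay above all 3 media libraries, and the log2 fold change was 0.47 (SE 0.08), with an adjusted p of 0.068 without and 0.000246 with the block. Cd69, the early activation marker that holds T cells in tissue by opposing S1pr1, stood at 55.0, 59.6 and 73.7 CPM in media and 78.5, 89.5 and 98.7 CPM in gel (log2 fold change 0.50, SE 0.11, adjusted p 0.301 without and 0.000167 with the block). Of the 21 inhibitory receptors and activation markers, these 2 were called with the block, higher in gel, beside 0.505% of all genes. In every pair 11 were higher and 2 lower, beside 18.5% and 19.6% of all genes. Pdcd1 and Lag3, other inhibitory receptors, gave 0.10 (SE 0.11) and 0.07 (SE 0.27). Tagap, a GTPase-activating protein induced on T cell activation, stood at 70.1, 65.9 and 86.9 CPM in media and 93.2, 104 and 137 CPM in gel (0.59, SE 0.14, adjusted p 0.458 without and 2e-05 with the block).

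Some regulators of signalling and transcription were called higher with the block as well. Tnfaip3, which encodes A20, an inhibitor of NF-κB signalling, stood at 79.0, 70.7 and 81.5 CPM in media and 102, 93.7 and 102 CPM in gel, without overlap. Its log2 fold change was 0.36 (SE 0.08, adjusted p 0.315 without and 0.001 with the block). Dusp1, a phosphatase that shuts off MAP kinases, gave 0.42 (SE 0.09, adjusted p 0.315 without and 0.0137 with the block), and Klf6, a zinc-finger factor, 0.38 (SE 0.06, 0.068 and 0.00162). Most genes of the lists to which Tnfaip3 and Dusp1 belong were not called: of 20 NF-κB genes 1 was called higher and 1 lower with the block, with a median of -0.09, and of 16 genes of MAP kinase phosphatases and Sprouty feedback Dusp1 alone was called, with 8 positive and a median of 0.01. Over all genes the block called 0.505% higher and 0.395% lower. Nr4a1 stood at 11.6, 8.01 and 6.14 CPM in media and 16.8, 13.2 and 8.43 CPM in gel: the groups overlapped, yet each gel library lay above the media library of its number, and the blocked adjusted p was 0.00263. Dusp18, another dual-specificity phosphatase, was close to absent in media, at 0.0936, 0 and 0.256 CPM, and stood at 0.747, 1.07 and 1.36 CPM in gel (log2 fold change 3.14, SE 0.53, adjusted p 0.068 without and 0.00566 with the block).

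Of the 17 chemokine and egress receptors tested, 2 were called with the block, both higher, 1 with the block in WT libraries alone and 0 without the pair of replicate 3. Over all genes the block called 0.505% as higher, and 0.195% when given to WT libraries alone. Gpr183, the oxysterol receptor that positions lymphocytes, stood at 40.1, 36.8 and 40.7 CPM in media and 48.7, 46.3 and 59.6 CPM in gel (log2 fold change 0.40, SE 0.09, adjusted p 0.315 without and 0.0037 with the block). Ccr7, the lymph node homing receptor, stood at 285, 266 and 303 CPM in media and 320, 332 and 376 CPM in gel (0.27, SE 0.08, adjusted p 0.694 without and 0.0137 with the block, but 0.104 with the block in WT libraries alone). In both genes the gel libraries all exceeded the media libraries, as they did in 4.65% of all genes tested. Of the 17 receptors, 8 were higher and 2 lower in every pair, and 5 were higher and 0 lower at an unadjusted p under 0.05, where all genes gave 2.8% and 2.64%. Their median was 0.07, and -0.02 with total-count scaling. S1pr1, the receptor for exit from lymphoid tissue, gave 0.07 (SE 0.08).

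Interferon-induced genes lay lower in gel, most of all in replicate 3. The guanylate-binding proteins and immunity-related GTPases are interferon-gamma-induced enzymes that attack intracellular pathogens. All 18 tested genes of that list had a negative log2 fold change, 17 were lower in gel in every pair, 13 had no overlap between the cultures, and 16 had an unadjusted p under 0.05, beside 4.53% without overlap and 2.64% at that p over all genes. In edgeR none of the 18 was called without the block and 2 were with it, Gbp7 and Gbp5. Without the pair of replicate 3 it was 0, and with total-count scaling it was 1 without and 17 with the block. Of all 19010 genes, the block called 75 lower. With total-count scaling 8 of all genes were called lower without and 245 with the block. DESeq2 without a block called 6 of the 18, where it called 0.132% of all genes as lower. The median log2 fold change was -0.50, made up of pair medians of -0.25, -0.25 and -0.89. Without media replicate 3 the median was -0.28.

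The media libraries lay further apart on this list than the gel libraries did. Why the pair of replicate 3 differed most was not tested. Relative to the media mean, the list's mean level was -0.25, -0.12 and 0.37 in the 3 media libraries and -0.51, -0.34 and -0.53 in the gel libraries, in log2 units. Gbp7, on chromosome 3 (142530342 to 142550149, plus strand), stood at 79.6, 78.6 and 95.8 CPM in media and 59.8, 62.5 and 55.8 CPM in gel (log2 fold change -0.51, SE 0.09, adjusted p 0.068 without and 0.00677 with the block). Irgm1, an immunity-related GTPase, stood at 121, 125 and 170 CPM in media and 102, 105 and 87.1 CPM in gel (-0.50, SE 0.12, adjusted p 0.368 without and 0.336 with the block). The cultures of both genes did not overlap, and the gap was widest in replicate 3. Irf8 and Wars, both induced by interferon gamma, gave -0.53 and -0.41; neither was called in either edgeR fit, and both were by DESeq2 without a block.

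The promoters of Gbp7 and Irgm1 are shown as examples of the lower group, 250 bases before the start site from RefSeq (GRCm38.p6), for Gbp7 at chr3:142530086-142530335 on the plus strand and for Irgm1 at chr11:48871421-48871670 on the minus strand. Capitals mark GAAANNGAAA, the letters of an interferon-stimulated response element, and TTCNNNGAA, those of a gamma-activated site, on either strand.
Gbp7: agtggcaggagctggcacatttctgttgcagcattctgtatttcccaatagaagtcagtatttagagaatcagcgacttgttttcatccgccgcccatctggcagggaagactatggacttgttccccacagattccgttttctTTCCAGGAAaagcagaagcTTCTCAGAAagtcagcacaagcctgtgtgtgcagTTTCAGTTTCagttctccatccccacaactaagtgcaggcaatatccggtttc
Irgm1: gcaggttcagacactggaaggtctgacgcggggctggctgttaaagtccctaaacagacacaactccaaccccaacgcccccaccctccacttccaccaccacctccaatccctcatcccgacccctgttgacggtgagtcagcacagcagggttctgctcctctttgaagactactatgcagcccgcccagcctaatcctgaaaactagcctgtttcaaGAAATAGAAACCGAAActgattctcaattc
In Gbp7 the gamma-activated letters began 106 and 87 bases before the start and the interferon-stimulated letters 53 bases before it. In Irgm1 2 overlapping copies of the interferon-stimulated letters lay 30 and 24 bases before the start, and no gamma-activated letters were in the window. Of the 32851 promoters, 2.98% hold GAAANNGAAA and 7.02% hold TTCNNNGAA. Only 10 of the 18 genes of the list had a promoter in the table, too few for a share over the list.

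**Figure D4:**
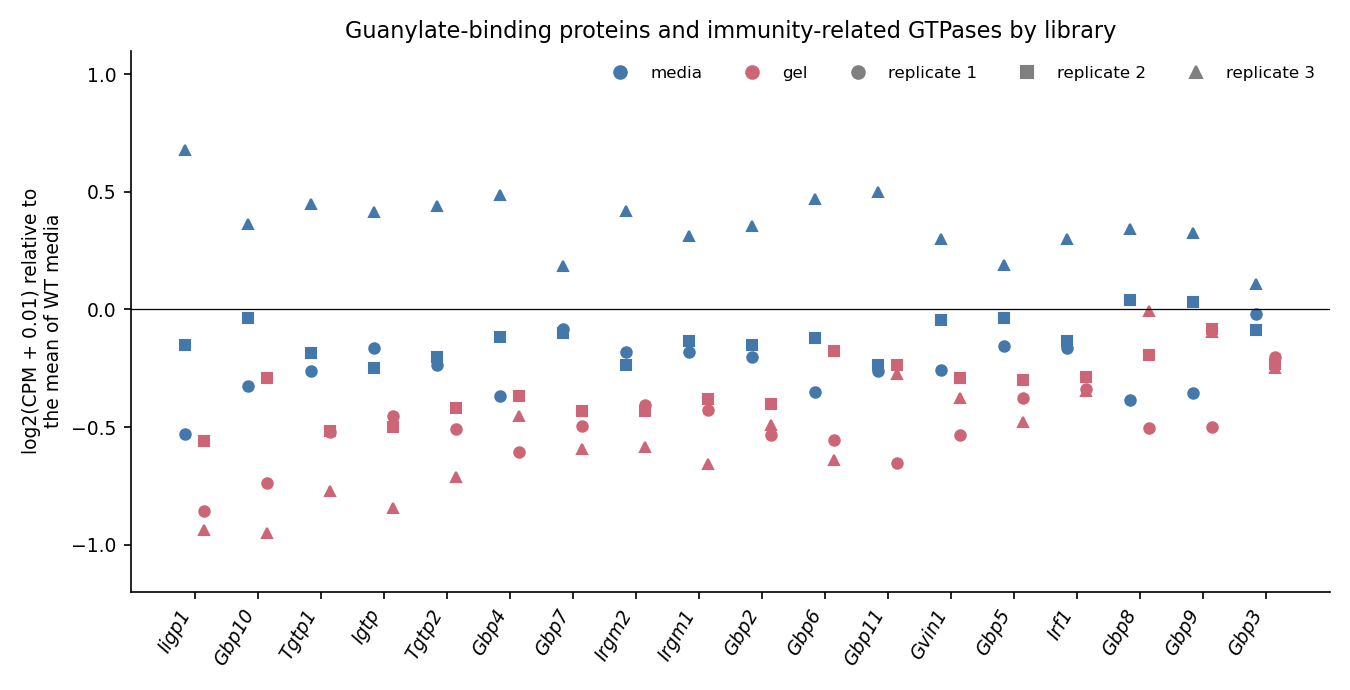
Level of each of the 18 guanylate-binding protein and immunity-related GTPase genes by WT library, as log2(CPM + 0.01) relative to the gene's mean in media (vertical axis), media in blue, gel in red, marker shape for the replicate number. Media replicate 3 lies above the other media libraries for every gene, and the gel libraries lie mostly below all media libraries.

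The wider list of 44 interferon-stimulated genes had a median of -0.13. At an unadjusted p under 0.05 without the block, 0 were higher and 15 lower, beside 2.8% and 2.64% of all genes. With the block 9 were called lower and 0 higher, beside 0.395% and 0.505% of all genes. The count was 3 with the block in WT libraries alone, 3 with blocked limma-voom, and 0 without the pair of replicate 1 or that of replicate 3. Irf7, the amplifier of type I interferon, stood at 29.4, 27.6 and 32.8 CPM in media and 22.4, 22.9 and 22.3 CPM in gel, without overlap (log2 fold change -0.41, SE 0.09, adjusted p 0.315 without and 0.00566 with the block). Ifi47 and Rtp4, both interferon-induced, gave -0.36 and -0.64 and were called with the block (adjusted p 0.039 and 0.00998), whereas Mx1, an antiviral GTPase, gave 0.02 (SE 0.13). The pair medians of this list, -0.16, -0.14 and -0.22, were closer to each other than those of the guanylate-binding proteins. Among 19 MHC class I and peptide loading genes, whose products show antigen to T cells, the median was -0.09. In every pair 12 were lower and 0 higher, beside 19.6% and 18.5% of all genes. The block called 1, Psmb10, an immunoproteasome subunit (-0.23, SE 0.07, blocked adjusted p 0.0357, or 0.0745 with the block in WT libraries alone).

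Of the 27 genes of the interleukin-2 receptor, STAT5 and SOCS list, 4 were called lower and 0 higher with the block: Osm, Cish, Bcl2 and Socs3. Over all genes the block called 0.395% lower and 0.505% higher. With the block in WT libraries alone 2 of the 4 genes were called, Osm and Bcl2. Cish, the STAT5-induced inhibitor of cytokine and T cell receptor signals, stood at 36.6, 55.4 and 67.7 CPM in media and 18.6, 31.1 and 24.7 CPM in gel. No gel library reached the lowest media library, but the media libraries differed among themselves about as much as the groups did, and the log2 fold change of -1.11 (SE 0.26) had an adjusted p of 0.478 without, 0.0037 with the block and 0.148 with the block in WT libraries alone. Bcl2, which protects from apoptosis, stood at 151, 183 and 209 CPM in media and 126, 145 and 144 CPM in gel (-0.39, SE 0.10, adjusted p 0.468 without and 0.00197 with the block). Socs3, another feedback inhibitor, gave -0.42 (SE 0.13), with a blocked adjusted p of 0.00363, or 0.133 with the block in WT libraries alone. Il2ra, the alpha chain of the receptor, gave 0.14 (SE 0.09) and was not called in either fit. The median of the list was -0.07, and 10 of its 27 genes had a positive value.

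Of 32 p53 targets tested, 2 were called with the block, both higher, and 0 without the pair of replicate 2 or that of replicate 3. Over all genes the block called 0.505% as higher. In every pair 16 of the p53 targets were higher and 1 lower, beside 18.5% and 19.6% of all genes. At an unadjusted p under 0.05 without the block, 6 were higher and 0 lower, beside 2.8% and 2.64%. The median was 0.12, or 0.03 with total-count scaling. Bbc3, which encodes the pro-apoptotic protein PUMA, stood at 28.7, 23.9 and 32.0 CPM in media and 32.9, 34.3 and 40.7 CPM in gel, higher in each pair (log2 fold change 0.35, SE 0.11, adjusted p 0.658 without and 0.0134 with the block). Zmat3, a p53-induced RNA-binding protein, was called with the block as well (0.25, SE 0.09, 0.805 and 0.0177, but 0.0983 with the block in WT libraries alone). Cdkn1a, the cell cycle inhibitor p21, gave 0.42 (SE 0.16, adjusted p 0.892 without and 0.167 with the block).

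Of 22 glycolysis genes, 13 were higher and 1 lower in every pair, beside 18.5% and 19.6% of all genes. With the block 3 were called, all higher, beside 0.505% of all genes. The medians of the 3 pairs were 0.03, 0.10 and 0.12. Slc2a3, a glucose transporter, stood at 86.6, 86.4 and 69.1 CPM in media and 106, 101 and 90.7 CPM in gel (log2 fold change 0.30, SE 0.10, adjusted p 0.812 without and 0.00566 with the block), and Slc16a3, which exports lactate, gave 0.31 (SE 0.20, 0.994 and 0.00692). With the block in WT libraries alone, no glycolysis gene was called, as without the pair of replicate 3. The median of the list was 0.10, and -0.03 when media replicate 3 alone was left out. With total-count scaling it was 0.01, beside -0.09 over all genes, and the block then called 0 glycolysis genes. The list's mean level ran from 0.22 to -0.26 over the media libraries and from 0.29 to -0.11 over the gel libraries, so the replicates of one culture lay further apart than the cultures. The 47 cytosolic ribosomal protein genes had a median of -0.07 and 0 calls in either edgeR fit (2 higher and 5 lower in the blocked fit without KO libraries). At an unadjusted p under 0.05 there were 0 without the block, and 1 higher and 7 lower with it. Over all 19010 genes the block gave 1135 higher and 1182 lower at that p. In every pair 25 of the 47 were lower and 5 higher, beside 19.6% and 18.5% of all genes. The pair medians were -0.13, -0.05 and -0.03, and the fitted median was 0.05 when media replicate 1 alone was left out.

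Few genes of cell mechanics and adhesion were called. Of 58 genes of the actin filament machinery, 0 were called in either edgeR fit, and the median was -0.02. At an unadjusted p under 0.05, 1 was higher and 0 lower without the block, and 3 and 6 with it. Of 19 SRF and MRTF targets, which respond to actin assembly, and 10 tested YAP and TAZ targets, which respond to mechanical load, 0 were called in either fit. At an unadjusted p under 0.05 without the block, 1 and 0 were higher and 2 and 1 lower. With the block 1 and 1 were higher and 4 and 1 lower. Actb, the gene of beta actin, gave -0.15 (SE 0.08), and Vcl, which links integrins to actin, 0.29 (SE 0.13, adjusted p 0.901). Over 9 other blocked fits with all 3 pairs, 0 to 3 of the actin genes, 0 to 4 of the SRF and MRTF targets and 0 to 1 of the YAP and TAZ targets were called. The upper counts came from the blocked fit without KO libraries, which called 3.72% of all genes. The 16 integrin genes had 0 calls in either fit (2 higher in the blocked fit without KO libraries). Without the block 0 had an unadjusted p under 0.05. With the block 5 were higher and 0 lower at that p, beside 1135 and 1182 of the 19010 genes tested. In every pair 7 of them were higher and 0 lower, beside 18.5% and 19.6% of all genes, and their median was 0.08. With total-count scaling the integrin median was -0.01, beside -0.09 over all genes. The collagen receptor subunits Itga1 and Itga2 gave 0.37 and -0.07 with adjusted p of 0.636 and 0.803 in the blocked fit. Lmna, the nuclear lamina gene that scales with tissue stiffness, stood at 5.19, 3.64 and 2.39 CPM in media and 6.67, 4.93 and 4.73 CPM in gel, with overlapping groups (0.54, SE 0.23, adjusted p 0.901 without and 0.0296 with the block, 0.141 with the block in WT libraries alone). Tmem63b, a mechanosensitive ion channel, gave 0.36 (SE 0.12, blocked adjusted p 0.028, 0.0961 with the block in WT libraries alone), and Piezo1, another, 0.09 (SE 0.07).

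**Figure D5:**
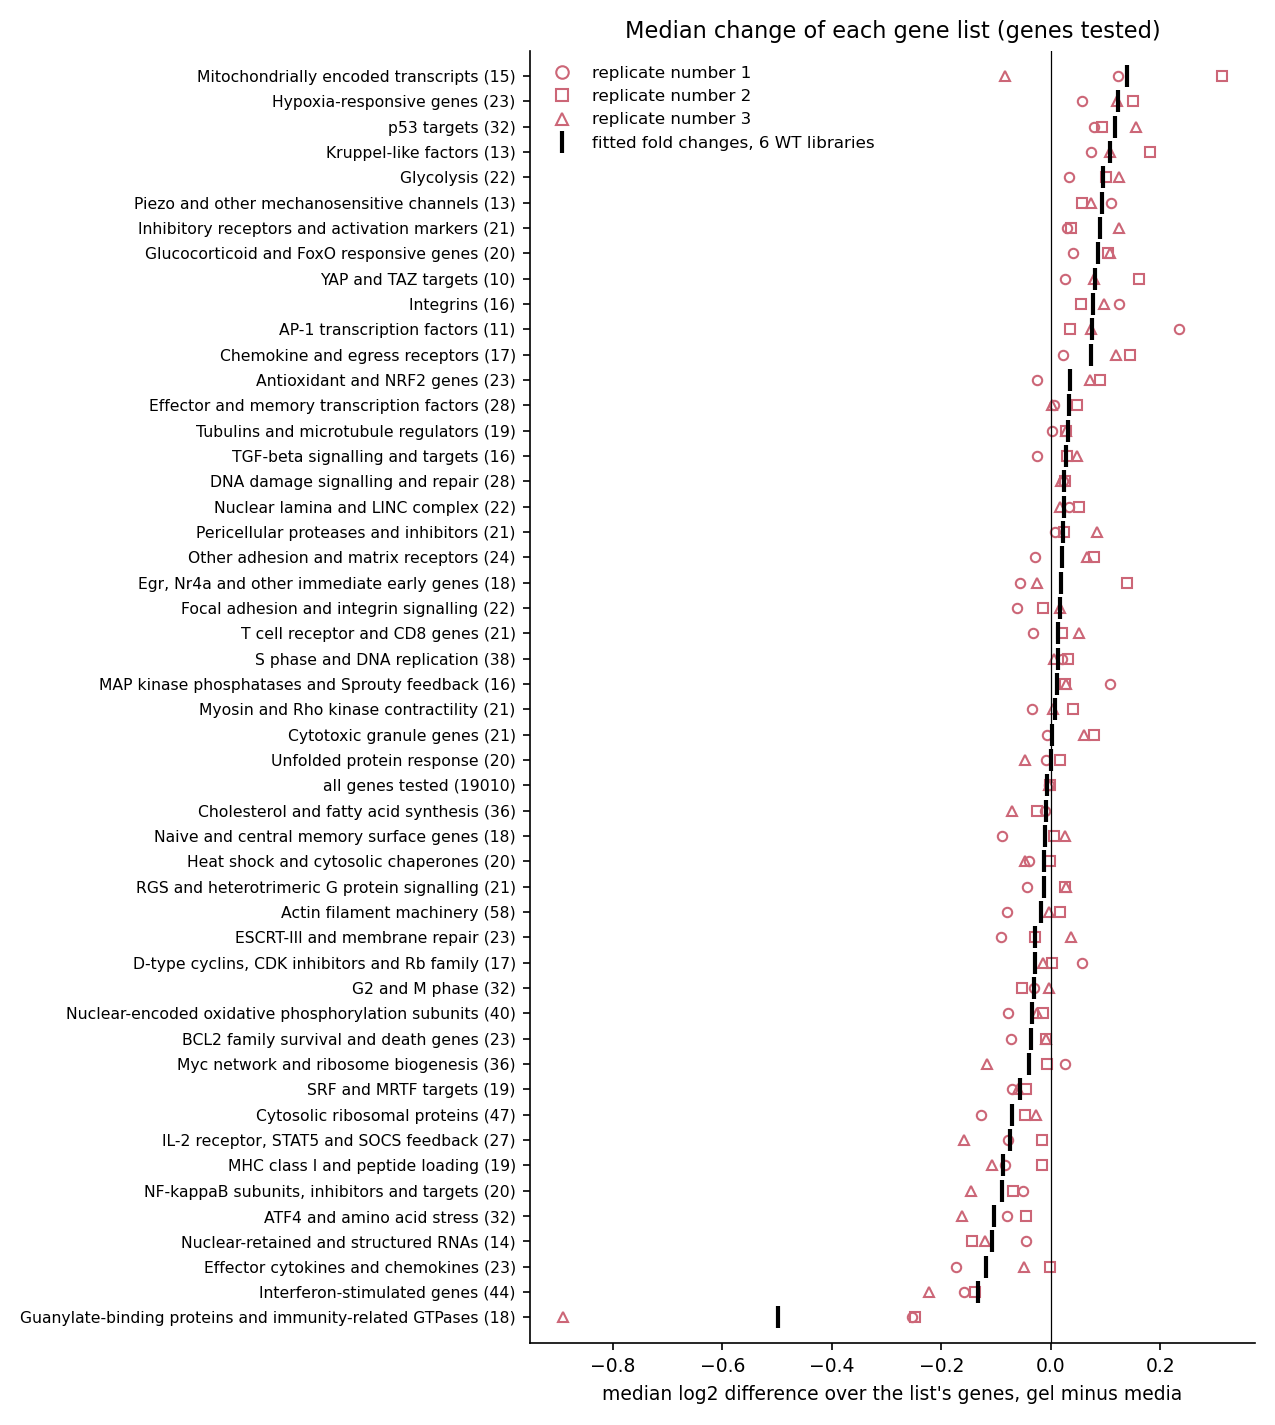
Median log2 difference between gel and media over the genes of each list (horizontal axis, number of genes tested in brackets), with black bars for the fitted fold changes and open symbols for the gel minus media difference within each replicate number. The guanylate-binding proteins and immunity-related GTPases stand at -0.50, and the medians of the other lists drawn lie between -0.13 and 0.14; the lists of markers of other cells are not drawn.

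The size of change that these libraries could have hidden depended on the expression level. For the 9924 genes whose log2 CPM averaged 3 or more, the 95% interval of the fold change lay inside 2-fold in either direction for 99.1% and inside 1.5-fold for 96.7%. Only 13 of them had a fitted change over 2-fold and 39 over 1.5-fold, and their log2 fold changes ran from -0.18 at the 5th to 0.16 at the 95th percentile. Among the 4663 genes with a mean log2 CPM under 0 the interval lay inside 2-fold for 41.7%, so changes of that size were not detectable for many scarce transcripts. The median SD of log2 CPM between replicates was 0.169 in media and 0.161 in gel, and edgeR's common biological coefficient of variation fell from 0.106 to 0.0675 when the replicate number was a block. Gzmb, the granzyme of cytotoxic granules, named here after its values were seen, shows the size of that spread: it stood at 498, 387 and 236 CPM in media and 611, 466 and 235 CPM in gel (log2 fold change 0.23, SE 0.34). The spread among its media libraries exceeded the difference between the cultures.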

How the data were processed

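The members and gene lists were chosen with earlier results of these data known, so the lists carry no test of their own. RNA of 150 ng per library had been depleted of ribosomal RNA (RiboCop) and prepared with the KAPA HyperPrep kit, per the labels' protocols. The deposited table holds the authors' raw counts per gene symbol, with no normalization; 0 columns belonged to no sample. The submitters' processing notes name featureCounts, HISAT2, FastQC, MultiQC, Picard and SAMtools, with GRCm38 (mm10). The annotation, strand setting and handling of duplicate or multiply mapped reads are left unstated in the sources used here, and each could change the counts of overlapping or near-identical genes. Positions came from GENCODE M21, which matched 96.4% of the 55291 symbols; 15905 symbols had no count.

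The filter of edgeR 4.0.16 (R 4.3.3) kept 19010 genes, and the genes removed held at most 0.104% of a library's counts. Counts were scaled by TMM and fitted over all 12 libraries in 4 groups with the robust quasi-likelihood test; p-values were Benjamini-Hochberg adjusted over all genes tested, at 0.05. They set each difference against the spread between replicates, which the main fit estimates over all 12 libraries of both genotypes. Log2 levels used a prior count of 2. Alternatives were RLE and total-count scaling, other filters, DESeq2 1.42.0, limma-voom 3.58.1, fewer libraries and a block for replicate number. The labels do not say that a number marks a mouse. Deviations from the group means of gel and media libraries of one number correlated in WT (r 0.786, 0.239 and 0.797 over 9924 genes; other combinations -0.812 to -0.0143), so the WT numbers were taken as pairs. In KO libraries the correlations of one number were lower (-0.0399, 0.199 and 0.173) and overlapped those of the other combinations (-0.266 to 0.175). The block was therefore also fitted for WT libraries alone.

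Counts were simulated for WT gel against media (18285 genes), with the dispersion of the blocked fit. All changed genes had a mean log2 CPM of 3 or more. A mouse-to-mouse SD of 0.12 in log2 was shared by libraries of one number in both genotypes. Without a block the test recovered 1.2% of 80 genes changed 1.25-fold, 88.3% of 60 changed 1.5-fold and 100% of 60 changed 2-fold, with 0 of 114 calls false. With the block it recovered 63.7%, 100% and 100%, with 7 of 178 false. The real KO libraries did not show such pairs clearly, so these rates need not hold for the data or for scarcer genes. Genes were named by rule: all called genes; the 12 smallest p in each direction among uncalled genes averaging a log2 CPM of 3 or more, with no overlap; up to 4 per list by p; the 6 with the largest replicate spread; Dock8, Cd8a, Cd8b1 and AP-1 genes; and calls of alternatives with at most 60. Only part of these are named, and the results of some genes are not reported here. Genes outside it, such as Cd4, Pdcd1, Lag3, Ifng, Mx1, Il2ra, S1pr1, Piezo1, Fkbp5, Itga1, Itga2 and Zswim4, were named after their values were seen, to complete a pathway.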

Additional observations from a re-analysis of the deposited data

Results flagged for a closer look

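The gel response was compared between the genotypes for 31 genes, those called and those uncalled with the smallest p and no overlap. Apart from genes not reported here, it differed for 5 of them, by the interaction term of the same edgeR fit (Benjamini-Hochberg adjusted over all genes). Of the 171 genes called with the block, 14 had a called difference. The share over all genes is not given here, so these counts cannot be set against it. Other named genes were not checked here. Tnfaip3 was 0.69 higher in the KO response than in the WT response on the log2 scale (SE 0.11, adjusted p 0.00818), with 0.36 in WT and 1.06 in KO cells. The other 4 are interferon-induced and had a negative WT value. For Gbp7 the KO response minus the WT response was 0.66 (SE 0.12, adjusted p 0.0136), from -0.51 in WT and 0.15 in KO cells. This KO value did not pass the edgeR test (adjusted p 0.233). For Gbp5 the difference was 0.71 (SE 0.12, adjusted p 0.0106), from -0.39 in WT and 0.32 in KO cells (KO adjusted p 0.0187). Irgm1 gave 0.70 (adjusted p 0.0336) and Tgtp1 0.94 (adjusted p 0.0291), with KO values of 0.20 and 0.30 that did not pass the test either (adjusted p 0.218 and 0.149). For Fosb, Fos, Klf4, Tsc22d3, Gm37352, Gm26532 and Osm the difference between the genotypes was not called (adjusted p 0.101 to 0.985).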

How the results depend on the processing

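Without a block, 7 genes were called (6 higher, 1 lower). RLE scaling, limma-voom, a fit without robust dispersion, one with 9 libraries and one without ribosomal-RNA-like loci also gave 7. Total-count scaling gave 15 (7 higher, 8 lower), no filter 195 (73 and 122), only genes averaging a log2 CPM of 3 or more gave 3 (2 and 1), DESeq2 50 (25 and 25) and the 6 WT libraries alone 2 (2 and 0). Leaving out 1 library gave 7 to 16 called, 6 to 8 higher and 1 to 9 lower, the most without media replicate 1. With the replicate number as a block, 171 genes were called in 12 libraries (96 higher, 75 lower) and 667 in the 6 WT libraries (373 and 294). With the block in WT libraries alone it was 60 (37 and 23), with blocked limma-voom 70 (44 and 26), with total counts 293 (48 and 245) and with no filter 519 (261 and 258). Without the pair of replicate 1 the blocked count was 47 (23 and 24), without that of replicate 2 66 (31 and 35) and without that of replicate 3 22 (20 and 2). The cause of these differences was not tested. The 171 genes kept their sign in each blocked alternative that tested them. They were picked by the blocked fit of these libraries, and all 171 had the same direction in all 3 pairs. Their sign could therefore hardly change, and it is no support for the calls. The blocked alternatives other than the 2 plain block fits were chosen after seeing the data. Of 554 recomputed values for 31 named genes, 5 lost the call (in the 6 WT libraries alone) and 88 gained one. A change of sign was counted only where the value was called in the main fit or the alternative, and 0 were found. These genes were chosen for a call or for a small p without overlap, so their stable sign says little. Total-count scaling kept the sign of 35 of 56 list medians. The median replicate SD was 0.111 in media and 0.106 in gel for genes averaging a log2 CPM of 3 or more.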

Other observations

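Some other transcripts were called with the replicate number as a block. Cd24a, a surface sialoglycoprotein, stood at 4.57, 4.62 and 4.27 CPM in media and 11.3, 8.16 and 7.15 CPM in gel (log2 fold change 0.98, SE 0.18, adjusted p 0.125 without and 0.0134 with the block). Map6, a microtubule-stabilizing protein, stood at 3.76, 4.27 and 4.42 CPM in media and 2.44, 1.99 and 1.81 CPM in gel (-0.99, SE 0.18, adjusted p 0.0971 without and 0.00463 with the block). Neither gene had overlapping cultures. Serpine2, an extracellular protease inhibitor and the gene called out of 21 pericellular proteases and inhibitors tested, stood at 36.7, 36.3 and 27.4 CPM in media and 50.4, 55.9 and 37.5 CPM in gel, and Plxna1, a semaphorin receptor, gave the same log2 fold change of 0.51, both called with the block (adjusted p 0.00197 and 0.0157). Over all genes the block called 0.505% as higher. S100a4, a calcium-binding protein of motile cells, stood at 26.4, 18.3 and 10.03 CPM in media and 41.2, 30.1 and 16.6 CPM in gel: the cultures overlapped, while each pair differed by 0.64 to 0.72 on the log2 scale.

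Among genes that averaged a log2 CPM of 5 or more, and leaving out the kinds of gene that the naming rule excludes, such as predicted models and histones, the 6 with the largest spread between replicates were small nuclear and nucleolar RNAs, and each was highest in WT media replicate 2. Snord17 stood at 30.7, 176 and 30.9 CPM in media and 38.4, 29.0 and 29.0 CPM in gel, and Rnu1a1 at 81.3, 341 and 67.7 CPM against 130, 140 and 84.5 CPM. Lars2, counted here among the loci that resemble ribosomal RNA, stood at 3693, 5698 and 5751 CPM in media and 12170, 42386 and 11961 CPM in gel, without overlap but with a wide error (log2 fold change 2.14, SE 0.79, adjusted p 0.894).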
